A study of Mus musculus with 9 samples.

Results

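Runs of cytosine (C) in amplicons of conserved mouse 5′ untranslated regions were examined by dimethyl sulfate (DMS) probing. The bounds of the coding sequence were not available, so whether every run lies inside the untranslated region is unknown. A run was taken as 3 or more C at consecutive positions of the same amplicon, so the members were chosen by sequence alone. This gave 2206 of the 9347 C in the table (23.6%), among 32967 nucleotides in all. They lay in 629 runs, of which 396 had 3 C, 171 had 4, 41 had 5, 18 had 6 and 3 had 7. The runs fell in 152 of 161 amplicons and 67 of 69 transcripts, and the median over all 161 amplicons was 10.0 run C. Because amplicons overlap, the 2206 readings covered 1865 distinct positions, of which 341 were read in 2 amplicons, and 532 distinct runs. The other 7141 C served for comparison, 2904 of them in pairs of C and 4237 with no C neighbour (single C).

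The cells were E14TG2a mouse embryonic stem cells, called E14, and each group had 3 samples that the labels describe as collected independently. ATP was depleted by 10 min without glucose in the presence of 2-deoxyglucose and sodium azide, each at 10 mM, and the untreated cells skipped this step. DMS was applied to both at 1.6%, buffered with 250 mM bicine, over 6 min at 37 °C. The other group was RNA refolded in vitro, and the sources used here do not give its DMS conditions. Reactivity was expressed in counts per 1000000 counts of an amplicon in a sample (CPM), so it shows where along an amplicon the signal fell and not an overall rise or fall. A DMS-free control was not analysed here, and the background at each C is therefore unknown.

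DMS methylates the base-pairing face of adenine and cytosine where it is not engaged in a base pair, and a reverse transcriptase that reads through the methylated base leaves a mutation in the cDNA. A C paired with G in a helix is therefore protected. Stretches of C are common in GC-rich leaders and can pair with stretches of G. In 5′ untranslated regions, such helices stand in the way of the scanning ribosome and are opened by RNA helicases that use ATP.

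The sequences below, from the deposited table with T for U, show runs of 7 C in Nipbl and Ptprg, the run of 6 C in Srgap2, the runs with large changes after refolding and the runs with the steepest profiles. The run is in capitals with up to 10 nt on each side, 5′ to 3′. Positions were taken to count from 1 at the start of the transcript. This was checked against reference sequence in 8 of 69 transcripts and held in those 8.
Nipbl 239 to 245: gccgtagccaCCCCCCCtcccggcccg
Ptprg 657 to 663: aacaagtttaCCCCCCCtgcctttctc
Srgap2 496 to 501: gccgccgccgCCCCCCacttccccac
Hipk3 470 to 474: ccccgcacggCCCCCgcgacccacc
Ddx17 591 to 593: ccaggcttctCCCaacagagtaa
Eif5 226 to 229: tgcccagccgCCCCtccgctcgcc
Tle4 615 to 617: ctcagtgacgCCCgcggggaatg
Eed 259 to 262: cgcgtgcgcgCCCCtttttcagca
Mapk6 152 to 154: tcggagaagtCCCgttgtatcag
Mbd5 1173 to 1175: gctatgctggCCCagttttgaag
Brd2 1629 to 1631: ccccccacttCCCgggttatgct

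Runs of C lay in C-rich surroundings. Within 15 nt of a run C, 39.1% of the other bases were C and 27.3% were G, against 27% C and 30.5% G around a single C. The base before the run was G in 290 runs, U in 189 and A in 142, and the base after it was G in 255, U in 189 and A in 184. At 9 runs an end of the read sequence cut the run, which left 620 whole runs for comparisons of position. A run of 3 or more G lay within 30 nt of 63% of run C and 57.8% of other C.

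The recovered counts per sample ranged from 5743965 to 12616275, and 19 to 35 amplicons of an in vitro sample had under 5000 counts, against 4 to 13 in the in-cell samples. The median count at a run C was 140.5 in ATP-depleted cells, 130.0 in untreated cells and 53 in vitro. For other C these medians were 240.0, 221 and 100.0. Counts came from amplified cDNA and are not independent molecules.

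Run C reacted less than other C in every sample. In untreated cells the median reactivity of run C was 3571, 3866 and 3819 CPM in the 3 samples, against 5197, 5195 and 5209 CPM for other C. In ATP-depleted cells run C had 3458, 3647 and 3693 CPM and other C 4908, 4854 and 5026 CPM. In vitro run C had 3098, 2979 and 3085 CPM and other C 4559, 4503 and 4513 CPM. The values of run C and other C did not overlap in any group. With 23.6% of the C, runs held 19.3% ± 0.592 of the C signal in untreated cells (SD, n = 3), 19.7% ± 0.59 in ATP-depleted cells and 18.9% ± 0.0995 in vitro.

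The step was from a single C to a C with neighbours, and run length added less. Single C in untreated cells had a median of 5964 ± 83 CPM (SD, n = 3), C in pairs 4208 ± 24.9, C in runs of 3 3844 ± 157, in runs of 4 3663 ± 72.3, in runs of 5 3693 ± 177 and in runs of 6 3397 ± 346. Neighbouring lengths from 3 to 6 differed by about their spread over these samples or less. The 3 runs of 7 C gave 4136 ± 466 CPM, a value set by very few sequences. In vitro the medians were 5384 ± 62.1 for single C, 3499 ± 57.2 for pairs, 3100 ± 85.9 for runs of 3, 3168 ± 95.1 for runs of 4, 2726 ± 93 for runs of 5 and 2509 ± 254 for runs of 6, and the samples of runs of 4 and of 5 did not overlap.

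**Figure D1:**
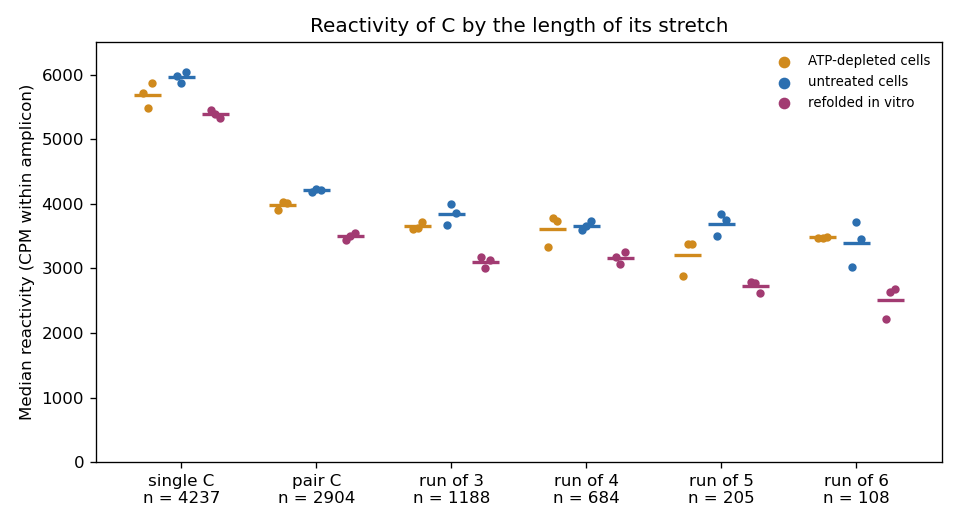
Median reactivity in CPM of C by the length of the stretch it lies in, with n the number of C read. Points are the 3 samples of each group and bars their mean; in all groups single C lie highest, pairs lower, and runs of 3 to 6 below the pairs.

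The ratio of the run median to the other C median was 0.687, 0.744 and 0.733 in the untreated samples, 0.705, 0.751 and 0.735 in the ATP-depleted samples and 0.679, 0.662 and 0.684 in vitro. Every in vitro ratio was below every in-cell ratio. This order did not hold inside amplicons, on a log2 scale with a pseudocount of 3196.78 CPM. There run C minus other C had a median over 129 amplicons of -0.28 ± 0.03 in untreated cells (SD, n = 3). It was -0.27 ± 0.04 in ATP-depleted cells and -0.23 ± 0.01 in vitro. Run C minus single C had a median over 152 amplicons of -0.39 ± 0.03 in untreated cells, -0.38 ± 0.03 in ATP-depleted cells and -0.38 ± 0.03 in vitro. The part of the change of scale in this was not tested.

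The flanking base moved with the level of the run's outer C and with that of single C. The order of bases was shared after the C but not before it. In untreated cells single C were lower after G than after U, while the first C of runs did not separate G from U. In untreated cells the first C of a run had a median of 6335 ± 208 CPM after A, 4415 ± 82.1 after G and 4336 ± 229 after U (SD, n = 3). Single C had 8324 ± 101, 5023 ± 16.3 and 5770 ± 169 CPM after the same bases. The last C of a run had 4728 ± 186 CPM before A, 4495 ± 202 before G and 3193 ± 43.2 before U, and single C 6821 ± 119.5, 6305 ± 151 and 5150 ± 79.5 CPM. With every flanking base tried, the run's outer C was lower than the single C.

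A nearby run of G went with lower reactivity of run C. In untreated cells run C with 3 or more consecutive G within 30 nt had a median of 3287 ± 144 CPM (1390 C), and run C without had 4555 ± 229.8 (816 C; SD, n = 3). For other C the medians were 5083 ± 38.5 and 5370 ± 23.7 CPM. In vitro run C had 2453 ± 81.8 CPM with and 3938 ± 209 CPM without a nearby run of G, and other C 4304 ± 65.1 and 4781 ± 90.5. Amplicons differ in both base content and reactivity, and the part of either in these medians was not tested.

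Position inside the run separated the C more than run length did. In untreated cells the first C, at the 5′ end, had a median of 4729 ± 175 CPM, the second 2727 ± 99.6, the C between the second and the last 3376 ± 209, and the last 4141 ± 117 (SD, n = 3). ATP-depleted cells gave 4491 ± 229, 2613 ± 104, 3267 ± 347 and 3995 ± 203 CPM for these places. In vitro RNA gave 4138 ± 153, 2321 ± 110.2, 2689 ± 156 and 3067 ± 61.1 CPM. The second C was the lowest place in all 9 samples, at 0.577 ± 0.00575 of the first in untreated cells, 0.582 ± 0.00863 in ATP-depleted cells and 0.561 ± 0.00924 in vitro. Pairs of C had a smaller step, from 4785 ± 67.1 CPM at the first to 3742 ± 73.3 at the second in untreated cells.

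The dip at the second C was present at each length from 3 to 6. In untreated cells the second C had 2901 ± 210.0 CPM in runs of 3, 2565 ± 98.6 in runs of 4, 2689 ± 548 in runs of 5 and 1627 ± 69.2 in runs of 6, against 4755 ± 274, 4502 ± 36.9, 4920 ± 515 and 4582 ± 220.4 for the first C. The second C was the lowest of its run in 57.2% of 388 runs of 3, 51.8% of 170 runs of 4, 51.2% of 41 runs of 5 and 77.8% of 18 runs of 6. In vitro these shares were 46.9%, 43.5%, 48.8% and 44.4%. Counts were lower there, with a median of 53 at a run C against 130.0 in untreated cells, and their part in these shares was not tested. The sources used here do not say how the authors' counting placed a mutation inside a repeated base, and its part in the profile was not tested.

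**Figure D2:**
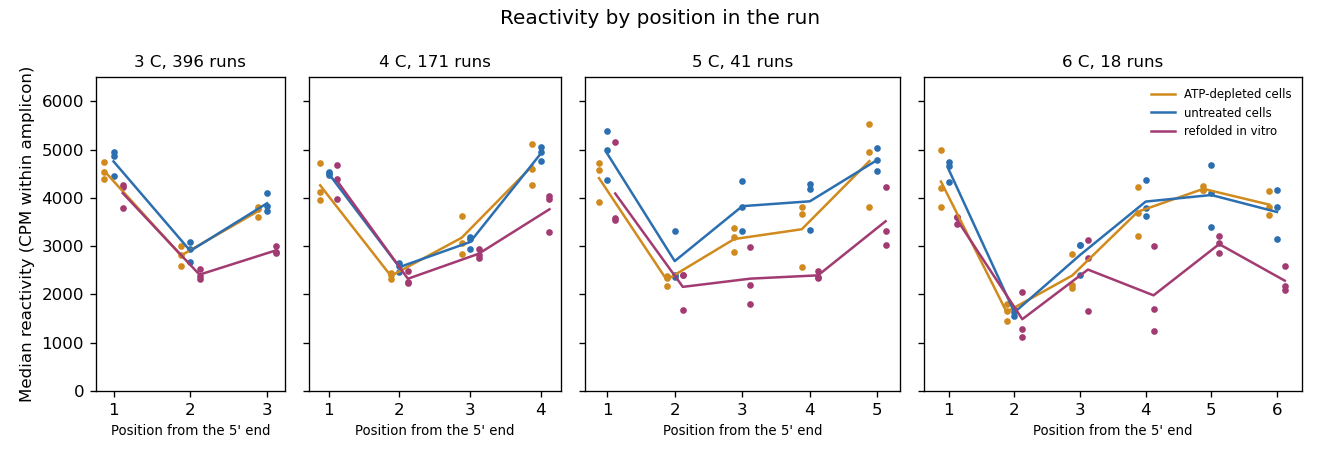
Median reactivity in CPM against position from the 5′ end of the run, in panels for runs of 3, 4, 5 and 6 C. Points are samples and lines group means over 3 samples; the second C is the lowest in untreated and ATP-depleted cells at every length shown, and the last C of the in vitro samples lies below that of untreated cells.

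Inside amplicons the first C was again nearest to single C, but the second C was not the lowest place in every sample. Relative to single C of the same amplicon, the median log2 difference in untreated cells was -0.23 ± 0.03 for the first C, -0.59 ± 0.01 for the second, -0.51 ± 0.03 for the C between the second and the last, and -0.34 ± 0.06 for the last (SD, n = 3). In ATP-depleted cells the values were -0.20 ± 0.02, -0.59 ± 0.02, -0.59 ± 0.07 and -0.33 ± 0.06, and in vitro -0.20 ± 0.03, -0.54 ± 0.02, -0.55 ± 0.04 and -0.38 ± 0.02. The second C and the C between the second and the last thus did not differ beyond their spread in these 2 groups. The C between the second and the last came from 98 amplicons and the other places from 152.

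Run by run, the second C lay below the first in 489 of 620 whole runs in untreated cells. The difference passed limma's test, with p adjusted over all 2044 stretches of 2 or more C, in 222 runs, 196 lower and 26 higher. That is 35.8% of the runs, against 34.2% of all stretches tested (27.6% lower, 6.56% higher). The median difference was -0.33 (log2) over the runs and -0.23 over all stretches. ATP-depleted cells had 208 such runs (179 lower, 29 higher; 31.6% of all stretches, 25.4% lower) and in vitro RNA 238 (199 lower, 39 higher; 38.2% of all stretches, 28.6% lower). Of the 18 runs of 6 C, 10 were lower and 1 higher at the second C in untreated cells. The untreated count dropped to 138 and 146 when untreated replicates 1 and 3 were left out in turn, and removal of weakly reactive nucleotides left 46 of 178 runs tested. The step itself changed after refolding in 24 of 620 runs against untreated cells, 10 higher and 14 lower (3.87% against 5.04% of all stretches), and after ATP depletion in none, with 22 runs at an unadjusted p under 0.05.

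Overlapping amplicons gave a second reading of this step. In untreated cells 96 runs were read whole in 2 amplicons, and the second C was below the first in both readings of 72 runs, above it in both of 10, and on opposite sides in 14. The r between the readings was 0.832 over these 96 runs, whose readings share the RNA samples. After the second C, reactivity was higher at the third in 408 of 620 runs in untreated cells, 419 in ATP-depleted cells and 354 in vitro.

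The last C against the first went either way. In untreated cells 191 of 620 runs differed by limma's test, 82 with the last C higher and 109 with it lower, which is 30.8% of runs against 32.4% of all stretches of 2 or more C (9.2% higher, 23.2% lower). Omission of untreated replicate 1 left 120 runs, and of untreated replicate 3 116. ATP-depleted cells had 188 such runs, 82 higher and 106 lower (29.9% of all stretches; 8.71% higher, 21.2% lower), and in vitro RNA 220, 83 higher and 137 lower (36.8%; 11.6% higher, 25.2% lower). By length, 44 were higher and 79 lower of 388 runs of 3, and 32 higher and 22 lower of 170 runs of 4. Runs of 5 had 5 higher and 3 lower, and runs of 6 had 1 and 3.

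The steepest rises along a run, on the log2 scale, were in Eed, Mapk6 and Ptms. The pseudocount of 3196.78 CPM makes log2 differences that involve a low level smaller than the CPM values alone would give. In Eed, a Polycomb subunit, the run of 4 C at 259 to 262 had 744 ± 275 CPM at its first C and 25342 ± 8447 at its last in untreated cells (SD, n = 3; log2 difference 2.82 ± 0.22 SE, limma adjusted p = 7.65e-05). The overlapping amplicon gave 805 ± 484 and 13659 ± 783 CPM, a difference of 2.08. This run is followed by U, and its last C was high in both readings. In Mapk6, an atypical MAP kinase, the run at 152 to 154 rose from 3492 ± 1080 CPM at its first C to 28604 ± 5293 at its last (2.25 ± 0.16, adjusted p = 4.86e-05). In Ptms, which encodes parathymosin, the run at 310 to 313 had 4657 ± 3994 and 40320 ± 3525 CPM (2.64 ± 0.57, adjusted p = 0.00943). The smallest in vitro library of that amplicon held 96 counts, and the call was lost without untreated replicate 1 (adjusted p = 0.0661).

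Other runs fell from first to last. In Mbd5, a methyl-CpG-binding domain protein, the run at 1173 to 1175 had 32826 ± 1702 CPM at its first C and 1736 ± 700.0 at its last (log2 difference -2.88 ± 0.18 SE, limma adjusted p = 2.9e-05). In Brd2, a bromodomain protein that binds acetylated histones, the run at 1629 to 1631 had 15377 ± 2323 and 1981 ± 597 CPM (-1.84 ± 0.14), and the overlapping amplicon 14163 ± 2311 and 3384 ± 829 CPM (-1.40 ± 0.18). In Ppp1r10, a regulatory subunit of protein phosphatase 1, the run at 160 to 163 had 16406 ± 2903 and 2395 ± 587 CPM (-1.81 ± 0.11). These 3 runs kept their direction in ATP-depleted cells and in vitro, where the mean differences were -2.49 and -3.30 for Mbd5, -1.68 and -2.79 for Brd2 and -1.85 and -1.86 for Ppp1r10.

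The runs of 7 C in Nipbl and Ptprg shared a high first C. In Nipbl, the loader of cohesin, the first C had 17001, 24491 and 22465 CPM in the untreated samples, against 8166 ± 916 CPM at C 2 and 3995 ± 331 at C 4 (SD, n = 3). C 5 and C 6 were higher again, at 11171 ± 2669 and 11064 ± 2098 CPM. In Ptprg, a receptor tyrosine phosphatase, the untreated profile went from 7240 ± 351 CPM at the first C to 2216 ± 165 at the second and 1461 ± 153 at the third, and back to 4727 ± 447 at the last. Both runs are preceded by A and followed by U. No C of either run passed limma's test after refolding or after ATP depletion, and 1 ATP-depleted library of the Ptprg amplicon held only 1058 counts.

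The 3 runs of 6 C with the highest signal had other shapes. In Srgap2, C 2 and C 4 were the highest in untreated cells (7660 ± 1373 and 7561 ± 1338 CPM) and the first and last the lowest (4175 ± 104 and 4127 ± 1097). C 5 had 5438, 5451 and 5208 CPM in untreated cells and 1389, 2811 and 2344 CPM in vitro, with no overlap (log2 change -0.68 ± 0.12 SE, limma adjusted p = 0.00712). In Sema6a, a transmembrane semaphorin, the run at 652 to 657 had 10105 ± 1996 CPM at the first C and 10598 ± 62.5 at the last in untreated cells, and the first fell in vitro to 2770 ± 2403 (-1.22, adjusted p = 0.0297). Its in vitro samples had 805, 2056 and 5449 CPM, and its smallest count in any sample was 2. Against ATP-depleted cells this first C was not called (-0.79, limma adjusted p = 0.121). The run at 273 to 278 of transcript NM_177047 varied widely between samples and no C of it passed the test against untreated cells.

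**Figure D3:**
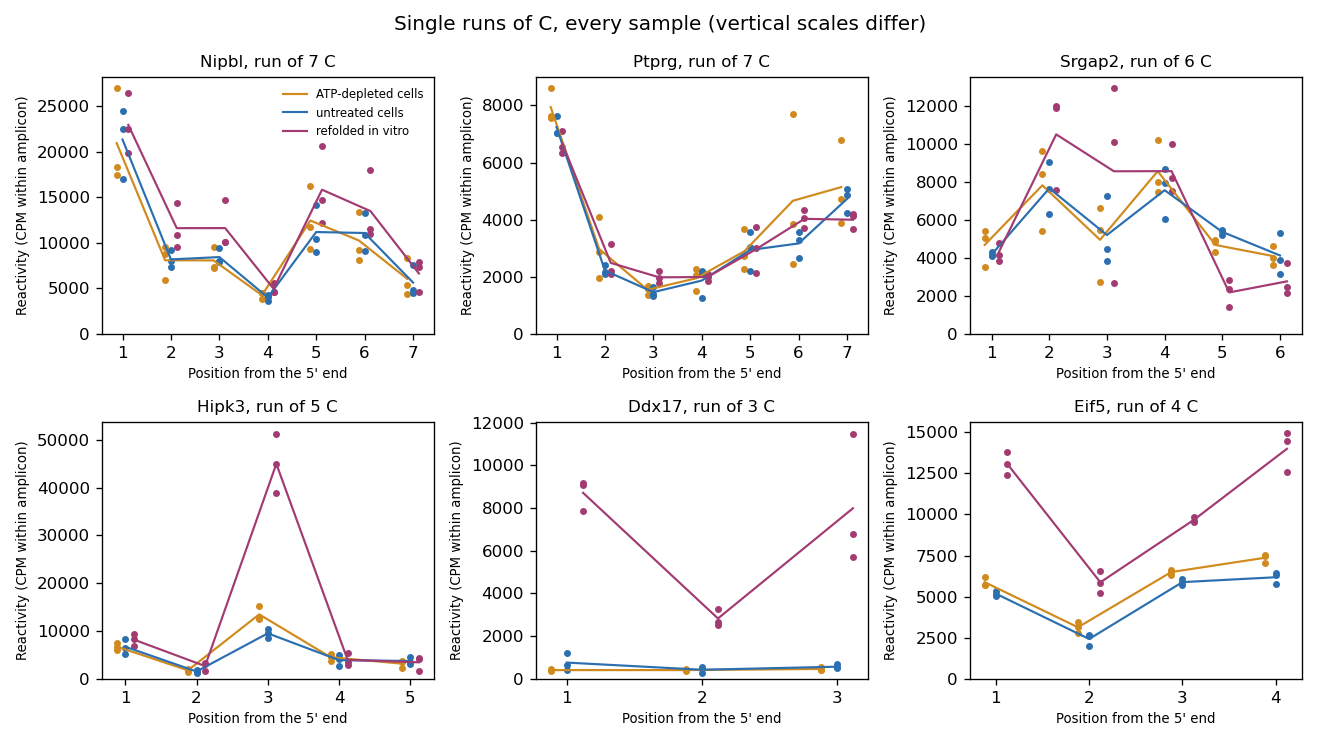
Reactivity in CPM at each position from the 5′ end for 6 single runs, each with its own vertical scale. Points are samples and lines group means; Nipbl and Ptprg start high and dip, Hipk3 has a single high C in vitro, and all 3 C of Ddx17 and all 4 C of Eif5 are higher in vitro than in either in-cell group.

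Within amplicons, run C lay below other C in most cases. The mean log2 reactivity of run C minus that of other C was tested in the 129 amplicons with at least 5 of each. In untreated cells 91 amplicons had run C lower and 10 had it higher (limma, adjusted p under 0.05), which is 78.3% of those tested (70.5% lower, 7.75% higher), and the median difference was -0.26. ATP-depleted cells had 93 lower and 14 higher (82.9% of those tested), and in vitro RNA had 83 lower and 14 higher (75.2%; 64.3% lower). The share of amplicons below 0 was 86%, 82.2% and 83.7% in the untreated samples and 77.5%, 79.1% and 76.7% in vitro, without overlap.

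The largest deficits were in Ddx17, Kdm2a and Nlk, in amplicons with few run C (6, 6 and 10). In the amplicon 503 to 753 of Ddx17, an RNA helicase, the difference was -1.33, -1.40 and -1.41 (log2) in the untreated samples. In Kdm2a, a histone demethylase (538 to 788), it was -1.15, -1.15 and -1.11, and in Nlk, a kinase of Wnt signalling (554 to 804), it was -1.02, -1.01 and -0.83. The opposite sign was found in Ptms (144 to 394), at 0.37, 0.69 and 0.52, though this was not called with the amplicon ends left out (limma adjusted p = 0.327). Ppp2r5e, a regulatory subunit of protein phosphatase 2A (137 to 387), had 0.64, 0.66 and 0.68, but -0.26 when 25 nt at each amplicon end were left out.

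After refolding, the position of run C relative to other C moved in 34 of 129 amplicons (26.4%), 20 towards higher and 14 towards lower run C. In Ddx17 503 to 753 the difference went from -1.38 ± 0.05 to -0.45 ± 0.10 (SD, n = 3; change 0.93 ± 0.06 SE, limma adjusted p = 9.6e-06). In the next amplicon of Ddx17, 731 to 981, it went the other way, from 0.12 ± 0.05 to -0.55 ± 0.02 (-0.67 ± 0.05, adjusted p = 2.14e-05). Kmt2e, a trithorax-family protein (272 to 522), rose by 0.44 to 0.01 ± 0.10. Other Kmt2e amplicons were called in both directions: 232 to 482 went from -0.345 to -0.1, and 47 to 297 from -0.751 to -1.203. Nfe2l1, a transcription factor of proteasome genes (0 to 250), rose by 0.42 to -0.19 ± 0.05. The Nfe2l1 call was lost under 9 alternatives, and its change was 0.06 with runs of 4 or more C only (limma adjusted p = 0.773) and 0.31 with the amplicon ends left out (adjusted p = 0.121). Ptp4a2, a small tyrosine phosphatase (41 to 291), fell from -0.25 ± 0.04 to -0.70 ± 0.09, and Tmtc2, a mannosyltransferase of the endoplasmic reticulum (498 to 748), from -0.61 ± 0.26 to -1.10 ± 0.10 (call lost with the amplicon ends left out, adjusted p = 0.0936). Against ATP-depleted cells, 33 amplicons moved in vitro (25.6%), 17 towards higher and 16 towards lower run C.

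**Figure D4:**
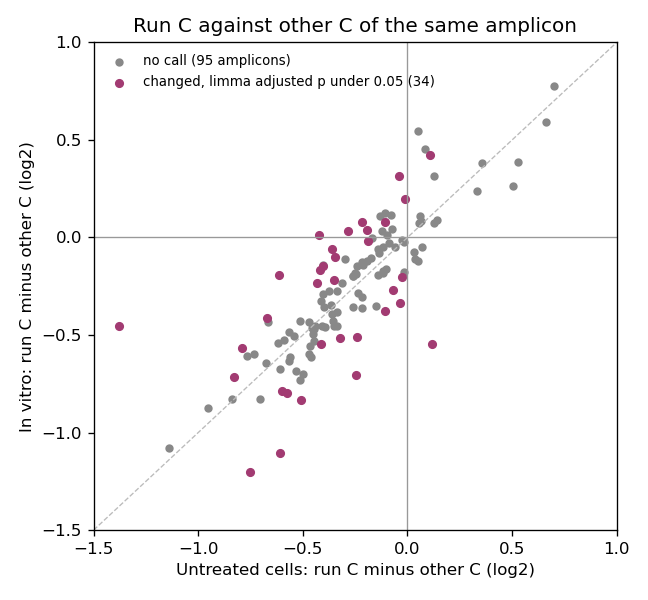
Mean log2 reactivity of run C minus that of other C in each of 129 amplicons, untreated cells on the horizontal axis and in vitro RNA on the vertical, each point a mean over 3 samples. The dashed line marks equal values; coloured points are the 34 amplicons that changed, and the coloured point farthest to the left is Ddx17 503 to 753.

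After refolding, single run C changed in both directions. Of 2206 run C, 327 (14.8%) changed against untreated cells, 115 higher and 212 lower, whereas 16.3% of all tested A and C and 18.9% of other C did. Higher calls were 5.21% of run C and 8.08% of all A and C, and lower calls 9.61% and 8.18%. The median change was -0.08 (log2) for run C, -0.07 for other C and 0.00 for all A and C. Against ATP-depleted cells, 256 run C (11.6%) changed in vitro, 104 higher and 152 lower, with 14.9% of all A and C (8.31% higher, 6.56% lower) and 17.3% of other C. The difference between classes of C was not tested, and lower counts at run C moved with it, with 13% of run C values and 8.58% of other C values under 10 counts.

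The split between higher and lower moved with the scale. With each amplicon divided by its mean A and C reactivity, 75 run C were higher and 261 lower against untreated cells, and the median of all tested nucleotides moved by -0.07. Removal of weakly reactive nucleotides, by a mean that includes the in vitro samples, left 1092 run C tested, with 90 higher and 85 lower. Leaving out untreated replicate 2 or 3 gave 168 run C in either case, and the 6 compared samples alone gave 153. Against ATP-depleted cells the counts were 154, 107 and 125 without ATP-depleted replicates 1, 2 and 3.

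At the last C of a run, lower calls outnumbered higher ones. Against untreated cells, 79 of 629 last C were lower in vitro and 19 higher, against 60 and 45 of 629 first C and 51 and 38 of 629 second C. The lower calls made up 12.6% of last C, close to the 11.7% of other C and above the 8.18% of all A and C, and the higher calls 3.02%, against 7.16% and 8.08%. Of the 319 C between the second and the last, 22 were lower and 13 higher. The median change was -0.13 (log2) at the last C, -0.06 at the first and -0.03 at the second. The ratio of the last to the first median was 0.886, 0.892 and 0.850 in the untreated samples, above the 0.722, 0.752 and 0.751 of the in vitro samples. Inside amplicons the last C, taken against single C, did not separate these groups. As a difference within runs this change was seldom called. The last-minus-first difference moved in 29 of 620 runs (9 higher, 20 lower; 4.68% against 5.38% of all stretches, of which 2.25% higher and 3.13% lower), and leaving out 1 sample left 2 to 20 such runs, the fewest without untreated replicate 3. Against ATP-depleted cells it moved in 17 runs (5 higher, 12 lower), and in 3.82% of all stretches (1.76% higher, 2.05% lower).

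**Figure D5:**
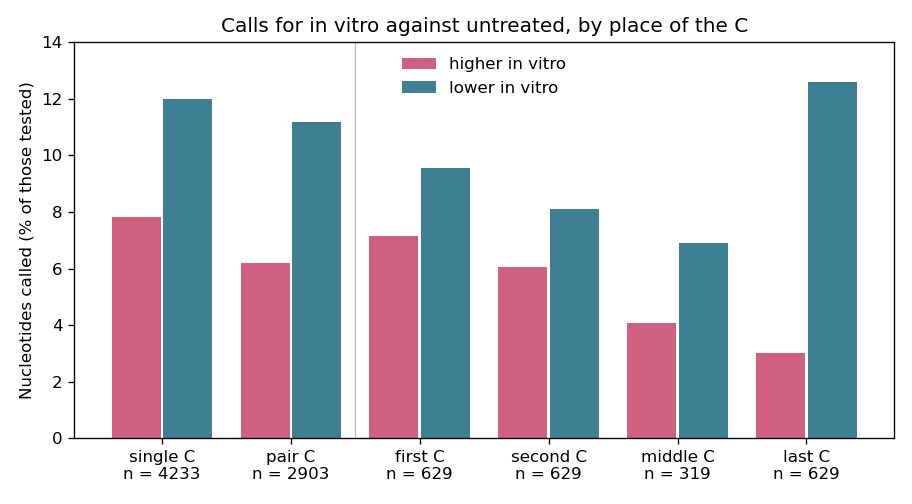
Share of C called higher or lower in vitro than in untreated cells (limma, adjusted p under 0.05), in percent of those tested, by the place of the C, with n the number tested. Among the run places, the last C has the fewest higher and the most lower calls (3.02% and 12.6%).

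By length, runs of 6 C had 16 of their 108 C lower in vitro (14.8%) and 1 higher against untreated cells, where other C had 11.7% lower and 7.16% higher and all A and C 8.18% and 8.08%. Runs of 3 had 136 lower and 75 higher of 1188 C, runs of 4 had 48 and 28 of 684, and runs of 5 had 12 and 11 of 205. Runs of 7 had 0 of 21 C called. Averaged over the whole run, 127 of 629 runs changed, 38 higher and 89 lower, which is 20.2% against 23.3% of C stretches of every length (8.41% higher, 14.9% lower). Against ATP-depleted cells, 117 runs changed, 46 higher and 71 lower (21.6% of all stretches; 9.57% higher, 12.1% lower). The count against untreated cells dropped to 77 and 84 when untreated replicates 2 and 3 were left out in turn. Of the 18 runs of 6 C, 17 had a negative mean change, against 57.3% of all C stretches and 59% of all runs, and 4 were called lower. Of the 3 runs of 7 C, 2 had a positive mean change.

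The largest rise on the log2 scale, whose pseudocount of 3196.78 CPM understates changes from a low level, was at 1 C in the middle of a run of 5 in Hipk3, a homeodomain-interacting kinase. Position 472 had 10348, 9646 and 8586 CPM in untreated cells, 12506, 15240 and 12744 CPM in ATP-depleted cells and 44906, 51199 and 38866 CPM in vitro. The groups did not overlap, and the log2 change against untreated cells was 1.92 ± 0.13 SE (limma adjusted p = 0.000194). The second reading of this position gave 11237 ± 3218 and 47968 ± 5902 CPM, a change of 1.84. It came from the same RNA samples and from nearly the same amplicon, 352 to 602 against 351 to 601. None of the 4 neighbours of position 472 in the run was called, and their in vitro means lay between 2682 and 8221 CPM.

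In Ddx17 the whole run at 591 to 593 was low in cells and reactive in vitro. It belongs to the 6 run C of the amplicon 503 to 753, so the amplicon change given above is not a separate result. Its first C had 1198, 434 and 655 CPM in untreated cells, 346, 483 and 401 CPM in ATP-depleted cells and 7879, 9184 and 9075 CPM in vitro (log2 change 1.59 ± 0.10 SE against untreated, limma adjusted p = 0.000194). Its last C had 568 ± 96.3 CPM in untreated cells and 7987 ± 3055 in vitro (1.54 ± 0.17, adjusted p = 0.00143). The second rose less, from 427 ± 157 to 2829 ± 409 CPM (0.73 ± 0.09, adjusted p = 0.00239). As ratios of CPM these rises were larger than that of Hipk3.

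Eif5, whose protein acts in start-codon selection, had the next largest rises of whole runs. The run at 226 to 229 had a mean of 4919 ± 228 CPM in untreated cells, 5719 ± 87.2 in ATP-depleted cells and 10654 ± 227 in vitro (SD, n = 3; change 0.76 ± 0.07 SE, limma adjusted p = 0.00045). All 4 of its C rose, and the second stayed the lowest, at 2427 ± 387 CPM in untreated cells and 5875 ± 670.4 in vitro. The run at 190 to 192 of the same amplicon went from 4994 ± 328 to 10821 ± 767 CPM (0.75 ± 0.08, adjusted p = 0.000633). Position 980 of Smad6, an inhibitory Smad, had 3078, 4962 and 13923 CPM in untreated cells and 16563, 34616 and 18975 in vitro (1.41 ± 0.40, adjusted p = 0.0455), and 12 alternatives ended this call, among them a pseudocount of 0.1 times the median (adjusted p = 0.0543) and the 6 compared samples alone (0.097). In Hipk3, position 252 rose against ATP-depleted cells, from 1789 ± 879 to 11705 ± 2920 CPM (1.58 ± 0.23, adjusted p = 0.00443), with 5085 ± 2366 CPM in untreated cells.

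Several large falls were in Tle4, a Groucho-family corepressor, and rested on shallow in vitro libraries. In the run at 615 to 617 the first C had 8680, 8846 and 7820 CPM in untreated cells and 181, 1866 and 1648 CPM in vitro in the amplicon 479 to 729, from 3 counts in vitro in all (log2 change -1.42 ± 0.17 SE, limma adjusted p = 0.00191). In the amplicon 578 to 828 it had no count in vitro. A level of 3 counts over the group would be 1952 CPM, 4.49-fold below the mean of 8766 ± 3444 CPM in untreated cells. The counts are not independent molecules, so this is not a firm lower bound on the fall. The last C of this run was lower in both amplicons, with log2 changes of -1.12 and -1.55, although the larger missed the threshold without untreated replicate 2 (limma adjusted p = 0.0506). The mean of the run fell from 6706 ± 1392 to 1035 ± 395 CPM in 479 to 729 and from 9113 ± 3245 to 1689 ± 747 CPM in 578 to 828. The smallest in vitro library held 682 counts in the first of these amplicons and 484 in the other.

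The other large falls in Tle4 were less uniform between readings. Position 603 had no count in vitro in 578 to 828, where 3 counts over the group would be 10.4-fold below the 20219 ± 1525 CPM of untreated cells. In 479 to 729 it rose from 12664 ± 3083 to 33749 ± 3300 CPM, so no direction can be given for it. Position 596 was lower than in ATP-depleted cells in both readings, with log2 changes of -1.64 and -0.89, and the call of the larger was lost under 7 alternatives, among them without ATP-depleted replicate 2 (limma adjusted p = 0.0936). The mean of the run at 798 to 800 went from 14868 ± 5839 to 6410 ± 1933 CPM (-0.99 ± 0.27 SE, limma adjusted p = 0.0331), a call lost under 6 alternatives, among them without in vitro replicate 2 (0.0789). Position 221 of transcript NM_177047 had 6177, 21027 and 9783 CPM in untreated cells and 1220, 138 and 814 CPM in vitro (-1.88 ± 0.40, adjusted p = 0.0177), and its call against ATP-depleted cells was lost under 4 alternatives, each without 1 sample. Position 174 of Ptms had 20040 ± 3716 CPM in ATP-depleted cells and 3822 ± 1381 in vitro, from 3 counts (-1.73 ± 0.19, adjusted p = 0.00156).

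Changes at run C repeated in part where a position was read in 2 amplicons. Over the 341 such positions the in vitro change against untreated cells had an r of 0.542 between readings, while the log2 levels had an r of 0.807 to 0.842. The change was called in both readings at 27 positions, where 26 had the same sign. It was called in 1 reading only at 62 positions, and 57 of these had the same sign in the other reading.

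ATP depletion moved no run C past the test. None of the 2206 run C was called against untreated cells by limma (0% of all A and C), and the median change was -0.02 (log2), with 90% of changes between -0.39 and 0.37. At an unadjusted p under 0.05 there were 103 run C (4.67%), against 636 of all A and C (3.93%). No amplicon moved in its difference between run C and other C, and no run in its mean, with 5 of 129 amplicons and 23 of 629 runs at an unadjusted p under 0.05. The 2 in-cell groups differed at run C by no more than these samples could resolve, while 90% of the in vitro changes lay between -0.78 and 0.64.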

How the data were processed

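The authors deposited log2 values per nucleotide and sample. Whole counts were recovered in 1449 of 1449 amplicon libraries (relative tolerance 0.0001), so each deposited log2 value is that of a count plus 0.5 per 1000000 counts of the library. The sources used here do not give the coverage, the build, the mutation counter or its treatment of deletions. The tools bcl2fastq, Bowtie2 and limma are named in the submitters' processing notes. Values were returned to CPM and tested as log2(CPM + 3196.78), the pseudocount being 0.5 times the pooled A and C median, with limma 3.58.1 in R 4.3.3. All 9 samples entered with a mean per group, tests were two-sided, and Benjamini-Hochberg adjustment ran over all 16178 A and C with a count, 129 amplicons, 6314 C stretches or 2044 stretches of 2 or more C (threshold 0.05). The scripts were tested on simulated data. Of 69 transcripts, 68 matched a RefSeq symbol. Items were named by rank: the 6 longest runs, and among calls the 4 nucleotides, 3 run means, 3 last-minus-first differences and 3 amplicons that rose most and the same number that fell most, without overlapping samples for nucleotides and run means. Results of 1 gene that this rule names are not reported here. The members, lists and comparisons were chosen with earlier results of these data known. The test of the second against the first C and the split by nearby runs of G were added after the data were seen.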

Additional observations from a re-analysis of the deposited data

How the results depend on the processing

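Results were recomputed with other pseudocounts, scalings, filters, run definitions, depths and subsets of samples. A named result that a filter or the depth limit removed has no value there and does not enter the counts of named values. Named results in amplicons with a library under 5000 counts, such as those of Tle4 and Ptms, were thus not tried at that limit. Of 833 values of the 40 named results under alternatives, 790 kept their direction and call, 42 lost the call and 1 reversed (Ppp2r5e 137 to 387, -0.26 with the ends left out). Some of the kept values could not differ. For named nucleotides, run means and last-minus-first differences, the setting of runs of 4 or more repeats the main fit. For named nucleotides, runs over the transcript repeat it too. These values say nothing about the run definition. A filter on low values gave 175 of 1092 run C against untreated cells, 153 against ATP-depleted cells, 56 of 81 amplicons apart and 16 changed, 69 of 269 runs with last and first C apart and 8 changed, and 46 of 178 with second and first apart. Runs of 4 or more gave, in the same order, 116, 85, 55, 16, 68, 7 and 93, with 38 run means and an in vitro ratio of 0.705. Of these, only the amplicon counts and the ratio were recomputed. The other counts are the main calls that lie in such runs. The compared samples alone gave 153 run C, 76 run means and 2 changed last-minus-first differences. That last count was 19 with trend and robust options, 16 on the deposited scale and 18 with amplicons divided by their mean, which also gave an in vitro ratio of 0.691, and split calls against ATP-depleted cells into 65 higher and 216 lower. Means in place of medians gave ratios of 0.792, 0.774 and 0.753 (ATP-depleted, untreated, in vitro), single C as the comparison 0.633, 0.629 and 0.567, and amplicons with 5000 counts 0.701 after ATP depletion. Leaving out 1 sample gave 168 to 300 run C against untreated cells, 107 to 262 against ATP-depleted cells, 93 to 104 and 25 to 37 amplicons, 77 to 115 run means, 116 to 215 and 2 to 20 last-minus-first runs, 138 to 250 second-minus-first runs, and ratios of 0.720 to 0.743, 0.710 to 0.739 and 0.671 to 0.682. Same-numbered samples had deviations that correlated weakly (lowest r -0.018, none over 0.1), so the numbers were not taken as pairs; with a replicate block, 274 run C, 214 against ATP-depleted cells, 0 after ATP depletion, 101 and 35 amplicons, 110 run means, 176 runs with last and first C apart and 7 changed were called. Low in vitro counts limit the falls in Tle4, Ptms, Sema6a and NM_177047. Runs defined inside amplicons are the definition used throughout; runs defined over the transcript were added after seeing the data.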
